A study of Mus musculus with 16 samples.

Results

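Interferon-stimulated genes are the genes that cells turn on when interferons, the secreted alarm proteins of viral infection, reach their receptors. The 39 genes described here were given by symbol, and each symbol matched 1 Ensembl identifier among the 46078 in the count tables. They were read in RNA-seq of mouse intestinal organoids, epithelial cultures started from isolated crypts. The 16 libraries fell into 6 groups by their labels. Organoids labelled Apc mutant in conditioned medium (titled APCCM) and organoids labelled WT in conditioned medium (titled WTCM) were sequenced on day 4 and on day 2 of culture, with 3 libraries in each of these 4 groups. Untreated organoids labelled Apc mutant and untreated organoids labelled WT were sequenced on day 2, with 2 libraries in each group. The treatment label of all 12 conditioned medium libraries names medium from Apc-mutant cultures, whereas the protocol names both WT and Apc-/- cultures as sources, and the series' design text gives another layout, with untreated cultures at both time points and conditioned medium at day 2 alone. All organoids are labelled C57BL6. Per the labels' protocols, crypts came from Lgr5-EGFP-IRES-CreERT2 mice with or without Apc fl/fl, or from Villin-CreERT2 Apc fl/fl mice, Apc was recombined in culture with 4OH-tamoxifen, WT organoids carried mCherry (LeGO-C2) and Apc-/- organoids carried Venus (LeGO-V2). Conditioned medium was topped up with R-spondin, Noggin and EGF. The fluorescent marker therefore differed between genotypes, and no label ties a replicate to an animal or a separate culture, so p-values measure only the spread between these libraries.

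Type I interferons bind IFNAR1 and IFNAR2, and type III interferons bind IFNLR1 and IL10RB, a receptor used mainly by epithelial cells such as those of the gut. Both receptors act through the kinases JAK1 and TYK2 on the complex ISGF3, which holds STAT2 and IRF9. ISGF3 binds a DNA element called the ISRE in the promoters of the genes treated here, and these encode sensors of viral RNA, enzymes that destroy RNA or block its translation, and factors such as IRF7 that amplify the response. Type II interferon acts instead mainly through another element, the GAS.

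Several facts of the libraries bear on every comparison below. Counts assigned to genes ranged from 17986815 to 29152692 in conditioned medium libraries and from 8325979 to 13027701 in untreated ones. Between 14.4 and 19.2% of reads fell in no annotated feature in conditioned medium libraries, and between 4.78 and 7.32% in untreated ones. Levels are given as CPM, a gene's counts scaled to the library's total, after adjustment by TMM. Apc itself stood at 252 to 278 CPM in APCCM libraries on day 2 and at 246 to 260 CPM in WTCM libraries. On day 4 Apc had 266.2 to 281.2 CPM in APCCM and 236.7 to 268.9 CPM in WTCM libraries. It had 217.5 to 249.1 CPM in untreated Apc mutant and 69.3 to 76.2 CPM in untreated WT libraries. Every conditioned medium range thus overlapped or exceeded the untreated Apc mutant range, and lay above the untreated WT range. The cause was not tested, and counts over a whole gene do not show a deleted part. Notum, a Wnt target that rises when Apc is lost, stood at 258 and 312 CPM in untreated Apc mutant libraries and at or under 1.03 CPM in all 12 conditioned medium libraries. Axin2, another Wnt target, was lower in APCCM than in WTCM libraries by a log2 of -0.62 on day 4 and -0.36 on day 2. The Wnt target Nkd1 had 1.17 to 2.17 CPM in APCCM and 4.66 to 4.72 CPM in WTCM libraries on day 4. On day 2 it had 1.54 to 1.72 CPM in APCCM and 3.36 to 4.04 CPM in WTCM libraries. Axin2 and Nkd1 thus went against the genotype label in conditioned medium. Notum went with it on day 2, at 0.608 to 0.753 CPM in APCCM and 0.138 to 0.562 CPM in WTCM libraries, but was not called. On day 4 Notum leaned the other way, with overlap, at 0.293 to 0.62 CPM in APCCM and 0.591 to 1.03 CPM in WTCM libraries. For this reason the libraries are called by their titles. Every direction rests on those titles, and genotype and medium source cannot be told apart. All 7 epithelial markers were at or above 1 CPM in every group. The summed level of 14 immune cell markers was 2.49 to 3.82 CPM in APCCM and 3.20 to 3.76 CPM in WTCM libraries on day 4, and 2.78 to 3.28 CPM in APCCM and 3.93 to 4.55 CPM in WTCM libraries on day 2. These sums came mainly from Itgam and Cd68, markers of myeloid cells. Itgam had 0.921 to 1.37 CPM in APCCM and 1.94 to 2.50 CPM in WTCM libraries on day 2. On day 4 it had 1.37 to 1.70 CPM in APCCM and 1.30 to 1.48 CPM in WTCM libraries. Of 2 immune markers tested, 1 was called lower in APCCM libraries on day 2 and 0 on day 4. Cd8a and Nkg7 were at 0 counts in all 16 libraries. The part of other cell types in the results was not tested. Replicate 1 of WTCM on day 4 stood apart from both other replicates of its group, with a chi-square per degree of freedom of 41.2 and 43.9 over genes, where all other replicate pairs had 3.36 to 6.23. No pair was thus close enough to be 1 library deposited again.

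Because ISGF3 reads its element in the DNA, the promoters of the 39 genes were searched for it first. RefSeq promoters of build GRCm38.p6, each 300 bases long and running from 250 bases before a transcript's start, were found by symbol for 29 of the genes. The ISRE was searched on both strands as GAAA, 2 bases of any kind and GAAA, with its reverse complement TTTC, 2 bases and TTTC, and the GAS as TTCNNNGAA, which is its own reverse complement. An ISRE stood in at least 1 promoter of 14 of the 29 genes (48.3%), against 3.99% of the 27025 genes with a promoter. A GAS stood in 5 of the 29 (17.2%), against 9.55% of all genes. The 250 bases before the start of Isg15 (chr4:156200819-156201068, minus strand), of Ifit3 (chr19:34583279-34583528, plus strand) and of Oasl2 (chr5:114896684-114896933, plus strand) are printed 5′ to 3′ with ISRE matches in capitals, the first because Isg15 had the largest fold change described below, the second as a member of the Ifit family and the third because Oasl2 had the smallest p-values without holding a match.
Isg15: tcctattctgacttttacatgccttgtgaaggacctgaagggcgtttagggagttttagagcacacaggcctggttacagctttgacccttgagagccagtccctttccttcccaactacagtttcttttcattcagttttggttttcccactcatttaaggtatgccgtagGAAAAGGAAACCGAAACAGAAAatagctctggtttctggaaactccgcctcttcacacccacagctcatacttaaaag
Ifit3: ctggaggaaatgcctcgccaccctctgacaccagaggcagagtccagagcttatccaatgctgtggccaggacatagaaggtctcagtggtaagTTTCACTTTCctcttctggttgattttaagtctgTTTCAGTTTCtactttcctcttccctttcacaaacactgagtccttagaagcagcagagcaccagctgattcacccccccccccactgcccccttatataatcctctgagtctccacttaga
Oasl2: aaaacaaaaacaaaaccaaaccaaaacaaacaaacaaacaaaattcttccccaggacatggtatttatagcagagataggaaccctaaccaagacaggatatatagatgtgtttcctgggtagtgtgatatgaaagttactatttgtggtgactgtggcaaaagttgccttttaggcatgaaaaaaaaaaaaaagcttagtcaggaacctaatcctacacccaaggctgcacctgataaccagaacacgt
The 3 matches of Isg15 overlap each other and begin 78, 72 and 66 bases before the start. The 2 matches of Ifit3 lie on the other strand, apart from each other. Single sites with up to 10 bases on either side are shown for a sensor, a synthetase, another Ifit gene, a signalling factor and a kinase, so that the letters can be compared, and the site of Eif2ak2 lies just inside the transcribed part. They come from Ddx60 (chr8:61928058-61928087, plus strand), Oas3 (chr5:120777715-120777744, minus strand), Ifit1 (chr19:34640794-34640823, plus strand), Stat2 (chr10:128270266-128270295, plus strand) and Eif2ak2 (chr17:78882535-78882564, minus strand).
Ddx60: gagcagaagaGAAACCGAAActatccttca
Oas3: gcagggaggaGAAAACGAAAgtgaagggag
Ifit1: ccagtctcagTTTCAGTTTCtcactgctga
Stat2: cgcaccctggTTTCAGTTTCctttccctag
Eif2ak2: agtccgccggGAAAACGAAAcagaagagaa
The other genes with an ISRE match were Ddx58, Ifih1, Oas1a, Ifit1bl1, Rsad2, Bst2 and Trim30a. A match is a run of letters and not a shown binding site, and its absence says only that these letters are not in this window.

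The first comparison asked how the libraries of the 2 titles differed in conditioned medium. On both days nearly the whole group stood higher in APCCM than in WTCM libraries. On day 4, 33 of the 38 genes tested were higher and 0 lower at an adjusted p under 0.05 (quasi-likelihood test of edgeR, Benjamini-Hochberg adjusted across 16510 genes), where 7.83% of all genes tested were called higher and 7.8% lower. On day 2, 36 were higher and 0 lower, where 8.54% of all genes were called higher and 8.15% lower. DESeq2 also called 0 lower on either day, and no gene of the group was lower at an unadjusted p under 0.05. The median log2 fold change was 1.04 on day 4 and 1.78 on day 2, beside a median of 0 over all genes tested on each day. In 33 of the 38 on day 4 and in all 38 on day 2, no library of the WTCM group reached into the APCCM range, which held for 17.2% and 16.7% of all genes tested. Genes called and at least 2-fold higher numbered 19 on day 4 and 25 on day 2, where 0.957% and 1.24% of all genes were. Among the 20 called genes with the largest fold higher in APCCM libraries, 9 on day 4 and 9 on day 2 belonged to the group. The group was chosen with earlier results of these data known. Its shares beside those of all genes are therefore a description and not an independent test. The count was 31 on day 4 without replicate 1 of WTCM, the library that stood apart. These are bulk levels, in which a change in the share of cells that express a gene and a change in RNA per cell cannot be told apart. The filter on low counts asked for 0.490 CPM in 2 libraries. Sp100, a nuclear body protein, did not reach it (0.0612 to 0.355 CPM over 16 libraries) and was not tested. The 3 genes Mx2, Trim30a and Ifi44 passed only through APCCM libraries, so that they had to differ. They are included in the counts and medians above, and Ifi44 is also among the 20 genes with the largest fold on each day. Their differences are therefore no result of their own.

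**Figure D1:**
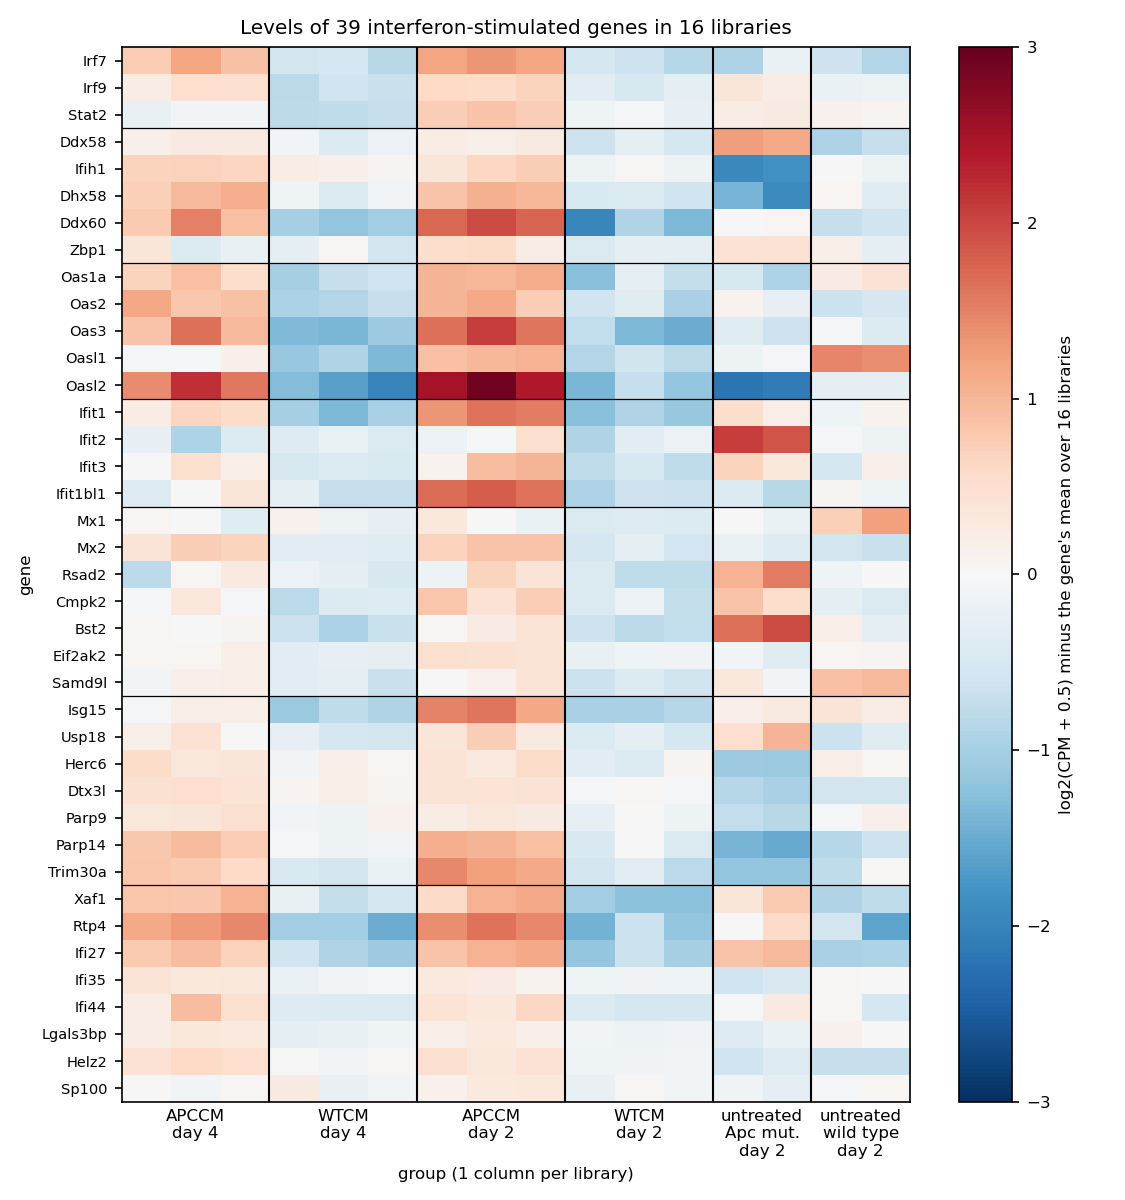
Each row is 1 of the 39 genes, grouped by role, and each column 1 of the 16 libraries, grouped by title, with colour giving log2(CPM + 0.5) minus the gene's mean over the 16 libraries. APCCM columns are red in most rows on both days and WTCM columns blue, while the untreated columns hold a mixture of both colours.

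The 3 signalling factors were higher in APCCM libraries on both days. Irf7 had 18.2, 24.6 and 19.7 CPM in APCCM and 6.998, 7.16 and 5.73 CPM in WTCM libraries on day 4. On day 2 it had 24.7, 27.1 and 24.5 CPM in APCCM and 7.13, 6.69 and 5.63 CPM in WTCM libraries. Every APCCM library thus held more than every WTCM library, by a log2 of 1.66 on day 4 (SE 0.14, adjusted p = 6.6e-09) and 1.97 on day 2 (SE 0.14, adjusted p = 3.3e-10). Irf9, the DNA-binding subunit of ISGF3, had 20.8, 25.1 and 25.03 CPM in APCCM and 9.82, 11.5 and 11.01 CPM in WTCM libraries on day 4. On day 2 Irf9 had 26.9, 26.01 and 28.2 CPM in APCCM and 13.9, 12.5 and 14.3 CPM in WTCM libraries. The groups did not overlap on either day, and the log2 fold change was 1.13 (SE 0.09, adjusted p = 2.7e-09) on day 4 and 0.99 (SE 0.09) on day 2. Stat2 had 21.4, 23.9 and 23.9 CPM in APCCM and 14.3, 14.6 and 15.4 CPM in WTCM libraries on day 4. On day 2 Stat2 had 42.5, 46.3 and 42.2 CPM in APCCM and 22.97, 24.7 and 21.2 CPM in WTCM libraries. Stat2 was higher in APCCM libraries within each day, by 0.64 and 0.93, but its APCCM level on day 4 lay in the range of its WTCM level on day 2.

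Of the 5 sensors of foreign nucleic acid, 4 were higher on day 4 and all 5 on day 2. Ddx60, a helicase related to RIG-I, had 9.34, 15.7 and 10.1 CPM in APCCM and 2.33, 2.01 and 2.25 CPM in WTCM libraries on day 4. On day 2 Ddx60 had 18.2, 21.6 and 18.4 CPM in APCCM and 0.967, 2.55 and 1.74 CPM in WTCM libraries. The lowest APCCM library stood above the highest WTCM library on both days, the widest gap among the sensors, with a log2 of 2.40 (SE 0.20, adjusted p = 7.4e-09) on day 4 and 3.48 (SE 0.21, adjusted p = 2.2e-11) on day 2. Dhx58, which encodes the regulator LGP2, had 5.58, 6.76 and 7.43 CPM in APCCM and 2.88, 2.28 and 2.99 CPM in WTCM libraries on day 4. On day 2 Dhx58 had 6.19, 7.298 and 6.84 CPM in APCCM and 2.21, 2.25 and 1.94 CPM in WTCM libraries, with no overlap on either day. Ddx58, which encodes RIG-I, had 30.8, 33.4 and 33.6 CPM in APCCM and 25.98, 20.7 and 24.6 CPM in WTCM libraries on day 4. On day 2 Ddx58 had 32.6, 31.1 and 33.2 CPM in APCCM and 17.7, 22.3 and 19.02 CPM in WTCM libraries. The difference of this abundant sensor was small, at 0.46 on day 4 and 0.72 on day 2. Ifih1, which encodes MDA5, had 44.9, 45.8 and 44.4 CPM in APCCM and 32.9, 31.6 and 29.7 CPM in WTCM libraries on day 4. On day 2 Ifih1 had 36.7, 43.7 and 47.4 CPM in APCCM and 25.4, 29.01 and 25.5 CPM in WTCM libraries, and its log2 fold change was 0.52 on day 4 and 0.68 on day 2. Zbp1, a sensor of Z-form nucleic acid, stood under 1 CPM throughout. It had 0.4402, 0.0516 and 0.127 CPM in APCCM and 0.108, 0.269 and 0 CPM in WTCM libraries on day 4, where the groups overlapped (adjusted p = 0.58). On day 2 Zbp1 had 0.563, 0.579 and 0.355 CPM in APCCM and 0.04603, 0.102 and 0.0996 CPM in WTCM libraries (log2 2.51, adjusted p = 0.02), a call lost without APCCM replicate 1 (0.061), APCCM replicate 2 (0.052), WTCM replicate 1 (0.085) or WTCM replicate 3 (0.051).

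All 5 genes of the Oas family were higher on both days, each by at least 2-fold. Oas proteins make the short oligoadenylates that switch on RNase L, and the Oas-like proteins carry ubiquitin-like domains. Oasl2 had 8.12, 14.1 and 9.12 CPM in APCCM and 0.814, 0.537 and 0.296 CPM in WTCM libraries on day 4. On day 2 Oasl2 had 17.7, 23.2 and 16.5 CPM in APCCM and 0.736, 1.48 and 0.946 CPM in WTCM libraries. Its log2 fold change of 4.31 (SE 0.28, adjusted p = 1.1e-10) on day 4 and 4.18 (SE 0.24, adjusted p = 8.5e-12) on day 2 had the smallest adjusted p of the group on both days. Oas3 had 2.25, 4.34 and 2.49 CPM in APCCM and 0.108, 0.0895 and 0.222 CPM in WTCM libraries on day 4. On day 2 Oas3 had 4.29973, 5.97 and 4.16 CPM in APCCM and 0.414, 0.102 and 0.0498 CPM in WTCM libraries. Oas3 was nearly silent in WTCM libraries and above 2 CPM in every APCCM library, with a log2 of 4.29 (SE 0.43, adjusted p = 1.1e-07) on day 4 and 4.57 (SE 0.40) on day 2. The day 2 value was 5.86 without WTCM replicate 1, which held most of the WTCM counts. Oasl1 had 5.58, 5.73 and 6.63 CPM in APCCM and 2.39, 2.91 and 1.995 CPM in WTCM libraries on day 4. On day 2 Oasl1 had 11.4, 12.2 and 12.6 CPM in APCCM and 2.95, 3.73 and 3.14 CPM in WTCM libraries. The groups lay far apart on both days, by a log2 of 1.31 (SE 0.15) on day 4 and 1.88 (SE 0.13, adjusted p = 2e-10) on day 2. Oas1a had 7.58, 8.98 and 6.88 CPM in APCCM and 2.06, 2.69 and 2.88 CPM in WTCM libraries on day 4. On day 2 Oas1a had 9.93, 9.73 and 10.5 CPM in APCCM and 1.66, 3.68 and 2.59 CPM in WTCM libraries, again without overlap. Oas2 had 2.103, 1.55 and 1.65 CPM in APCCM and 0.108, 0.134 and 0.222 CPM in WTCM libraries on day 4. On day 2 Oas2 had 1.89, 2.09 and 1.47 CPM in APCCM and 0.276, 0.409 and 0.0996 CPM in WTCM libraries. Oas2 was among the 8 genes whose fold was larger on day 4 (log2 3.40) than on day 2 (2.76). The Oas genes lie in 2 clusters of related copies on chromosome 5 and reads with several alignments count for no gene, so levels of this family and of the Ifit family on chromosome 19 are uncertain.

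The Ifit family, whose proteins bind foreign RNA ends, was split. Ifit1 had 1.91, 2.74 and 2.53 CPM in APCCM and 0.542, 0.313 and 0.554 CPM in WTCM libraries on day 4. On day 2 Ifit1 had 4.66, 5.91 and 5.48 CPM in APCCM and 0.368, 0.613 and 0.448 CPM in WTCM libraries. Ifit1 did not overlap between groups and was higher by a log2 of 2.33 (SE 0.27) on day 4 and 3.48 (SE 0.25, adjusted p = 3.3e-10) on day 2. Ifit1bl1, a mouse gene related to Ifit1, had 3.77, 5.11 and 6.63 CPM in APCCM and 4.07, 2.95 and 2.96 CPM in WTCM libraries on day 4. On day 2 Ifit1bl1 had 17.05, 18.9990 and 16.6 CPM in APCCM and 2.39, 3.12 and 3.04 CPM in WTCM libraries. The wide gap of day 2 (log2 2.62, SE 0.17, adjusted p = 4.5e-11) contrasts with overlapping groups on day 4 (0.67, SE 0.18, adjusted p = 0.012). The day 4 call was lost without APCCM replicate 3 (adjusted p 0.15), WTCM replicate 2 (0.058) or WTCM replicate 3 (0.072). Ifit3 had 0.342, 0.671 and 0.464 CPM in APCCM and 0.108, 0.134 and 0.111 CPM in WTCM libraries on day 4. On day 2 Ifit3 had 0.409, 1.101 and 1.22 CPM in APCCM and 0, 0.102 and 0 CPM in WTCM libraries. The day 2 difference rested on 51 counts in APCCM and 2 in WTCM libraries, a ratio of 27.7 with an exact 95% counting interval of 7.28 to 235. Both WTCM counts were in replicate 2, without which the fitted log2 was 7.10 in place of 4.54, a fit against 0 counts and so no bound. The day 4 call of Ifit3 (log2 1.99, adjusted p = 0.03) was lost without any 1 of APCCM replicate 2 or 3 or of the 3 WTCM replicates, at adjusted p 0.063 to 0.12. Ifit2 was called on neither day. It had 2.59, 1.45 and 2.28 CPM in APCCM and 2.33, 2.73 and 2.22 CPM in WTCM libraries on day 4 (log2 -0.19, SE 0.24, adjusted p = 0.66), the 1 negative value of the group on either day. On day 2 Ifit2 had 2.76, 3.07 and 4.61 CPM in APCCM and 1.47, 2.45 and 2.74 CPM in WTCM libraries (log2 0.66, SE 0.23, adjusted p = 0.051).

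Of 7 other antiviral effectors, 5 were higher on day 4 and 6 on day 2. Eif2ak2 encodes PKR, the kinase that stops translation on double-stranded RNA. It had 56.3, 55.96 and 61.6 CPM in APCCM and 43.3, 45.3 and 43.8 CPM in WTCM libraries on day 4, and on day 2 it had 75.4, 74.4 and 72.1 CPM in APCCM and 45.8, 49.4 and 49.9 CPM in WTCM libraries. Its replicates lay so close that a log2 of 0.39 and 0.61 was called on both days. Samd9l, an inhibitor of translation and growth, had 26.7, 31.6 and 32.7 CPM in APCCM and 22.9, 23.5 and 17.7 CPM in WTCM libraries on day 4. On day 2 Samd9l had 28.9, 31.3 and 37.9 CPM in APCCM and 18.1, 21.1 and 18.5 CPM in WTCM libraries, with no overlap on either day. Bst2, or tetherin, which holds budding virus at the membrane, had 5.72, 5.58 and 5.99 CPM in APCCM and 3.36, 2.64 and 3.33 CPM in WTCM libraries on day 4. On day 2 Bst2 had 5.89, 6.78 and 7.61 CPM in APCCM and 3.45, 3.01 and 3.14 CPM in WTCM libraries, and the log2 was 0.89 on day 4 and 1.07 on day 2. Rsad2, which encodes viperin, and Cmpk2, a nucleotide kinase, are neighbours on chromosome 12. Cmpk2 had 3.62, 4.801 and 3.55 CPM in APCCM and 1.899, 2.64 and 2.73 CPM in WTCM libraries on day 4. On day 2 Cmpk2 had 6.96, 5.16 and 6.49 CPM in APCCM and 2.62, 3.22 and 2.04 CPM in WTCM libraries. Cmpk2 was called on both days, although the day 4 call (log2 0.69, adjusted p = 0.015) was lost without APCCM replicate 2 (0.1) or WTCM replicate 1 (0.08). Rsad2 had 0.293, 0.929 and 1.14 CPM in APCCM and 0.705, 0.627 and 0.4803 CPM in WTCM libraries on day 4, where the groups overlapped (adjusted p = 0.55). On day 2 Rsad2 had 0.717, 1.68 and 1.27 CPM in APCCM and 0.506, 0.306 and 0.299 CPM in WTCM libraries (log2 1.67, adjusted p = 0.0086), a call lost without APCCM replicate 2 (0.051). Mx1 and Mx2 encode GTPases that trap viral nucleocapsids, and Mx1 is defective in most laboratory mouse strains. Mx2 had 0.783, 1.14 and 1.06 CPM in APCCM and 0.271, 0.269 and 0.259 CPM in WTCM libraries on day 4. On day 2 Mx2 had 1.07, 1.27 and 1.27 CPM in APCCM and 0.184, 0.306 and 0.149 CPM in WTCM libraries. Its log2 was 1.88 on day 4 and 2.47 on day 2, but Mx2 passed the filter only through APCCM libraries and so had to differ. Mx1 had 0.391, 0.361 and 0.169 CPM in APCCM and 0.434, 0.269 and 0.222 CPM in WTCM libraries on day 4, with overlapping groups (log2 0.02). On day 2 Mx1 had 0.563, 0.348 and 0.254 CPM in APCCM and 0.138, 0.153 and 0.149 CPM in WTCM libraries (log2 1.37, SE 0.55, adjusted p = 0.092).

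Isg15 and the enzymes that handle it, ubiquitin or ADP-ribose were higher in 6 of 7 on day 4 and in 7 of 7 on day 2. Isg15 encodes a ubiquitin-like protein that is attached to other proteins. It had 0.538, 0.723 and 0.717 CPM in APCCM and 0, 0.134 and 0.0739 CPM in WTCM libraries on day 4. On day 2 Isg15 had 2.51, 2.78 and 1.93 CPM in APCCM and 0.04603, 0.0511 and 0.0996 CPM in WTCM libraries. Its log2 fold change on day 2, 5.06 (SE 0.44, adjusted p = 8.9e-09), was the largest positive value of all 16510 genes tested, while on day 4 it was 3.06 (SE 0.52), or 3.72 without WTCM replicate 2. Isg15 was named here after its values were seen. Usp18, which removes ISG15 and damps the receptor, had 0.391, 0.568 and 0.295 CPM in APCCM and 0.163, 0.0448 and 0.0369 CPM in WTCM libraries on day 4. On day 2 Usp18 had 0.512, 0.811 and 0.456 CPM in APCCM and 0.0921, 0.153 and 0.0498 CPM in WTCM libraries. Usp18 was called on both days (log2 2.37 on day 4 and 2.51 on day 2), but the day 4 call was lost without APCCM replicate 2 (adjusted p 0.057), WTCM replicate 2 (0.052) or WTCM replicate 3 (0.073), and the value was 3.15 without WTCM replicate 1. Herc6, the main ISG15 ligase of the mouse, had 1.27, 1.03 and 1.06 CPM in APCCM and 0.651, 0.895 and 0.739 CPM in WTCM libraries on day 4 (adjusted p = 0.21). On day 2 Herc6 had 1.13, 0.985 and 1.27 CPM in APCCM and 0.4603, 0.409 and 0.796 CPM in WTCM libraries (log2 1.02, adjusted p = 0.024). The day 2 call was lost with DESeq2 (0.07) and without APCCM replicate 1 (0.056), APCCM replicate 3 (0.1), WTCM replicate 1 (0.099) or WTCM replicate 2 (0.099). Parp14, a mono-ADP-ribosyltransferase, had 50.5, 55.6 and 48.9975 CPM in APCCM and 27.8, 25.6 and 26.97 CPM in WTCM libraries on day 4. On day 2 Parp14 had 61.2, 58.2 and 53.2 CPM in APCCM and 20.6, 28.04 and 20.9 CPM in WTCM libraries. All APCCM libraries stood well above all WTCM libraries, by a log2 of 0.95 (SE 0.09, adjusted p = 3.3e-08) on day 4 and 1.31 (SE 0.09, adjusted p = 1.9e-10) on day 2. Dtx3l and Parp9 encode partners in a ubiquitin ligase and share 682 bases on opposite strands of chromosome 16, where reads could be ambiguous. Dtx3l had 64.5, 66.1 and 62.2 CPM in APCCM and 49.5, 52.8 and 49.5 CPM in WTCM libraries on day 4, and on day 2 it had 62.7, 62.04 and 63.7 CPM in APCCM and 45.8, 48.3 and 45.5 CPM in WTCM libraries. Parp9 had 42.8, 43.7 and 47.3 CPM in APCCM and 32.2, 30.4 and 36.9 CPM in WTCM libraries on day 4, and on day 2 it had 39.6, 43.4 and 40.8 CPM in APCCM and 28.4, 33.7 and 30.3 CPM in WTCM libraries. Both moved little, with log2 values of 0.34 and 0.42 on day 4 and 0.43 and 0.42 on day 2, without overlap of groups. Trim30a, a mouse TRIM family gene, had 1.52, 1.45 and 1.22 CPM in APCCM and 0.325, 0.269 and 0.4803 CPM in WTCM libraries on day 4. On day 2 Trim30a had 2.56, 2.14 and 1.98 CPM in APCCM and 0.276, 0.409 and 0.149 CPM in WTCM libraries. Its log2 was 1.90 on day 4 and 2.98 on day 2, but Trim30a passed the filter only through APCCM libraries and so had to differ.

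The 7 other tested genes were higher on both days. Ifi27, a small hydrophobic membrane protein, had 14.9, 16.6 and 14.1 CPM in APCCM and 5.42, 4.34 and 3.77 CPM in WTCM libraries on day 4. On day 2 Ifi27 had 15.9, 18.1 and 19.4 CPM in APCCM and 3.54, 5.26 and 4.03 CPM in WTCM libraries. The groups did not overlap and the log2 was 1.77 (SE 0.13, adjusted p = 9.2e-10) on day 4 and 2.06 (SE 0.13, adjusted p = 6.6e-11) on day 2. Rtp4, a receptor transporter protein, had 3.47, 3.92 and 4.43 CPM in APCCM and 0.3797, 0.403 and 0.148 CPM in WTCM libraries on day 4. On day 2 Rtp4 had 4.29973, 5.097 and 4.46 CPM in APCCM and 0.184, 0.664 and 0.299 CPM in WTCM libraries. The gap was of like size on both days, at 3.71 (SE 0.34, adjusted p = 2.4e-08) on day 4 and 3.60 (SE 0.33) on day 2, or 4.23 on day 2 without WTCM replicate 2. Xaf1, which promotes cell death, had 2.01, 1.96 and 2.41 CPM in APCCM and 0.705, 0.358 and 0.4803 CPM in WTCM libraries on day 4. On day 2 Xaf1 had 1.59, 2.37 and 2.59 CPM in APCCM and 0.184, 0.102 and 0.0996 CPM in WTCM libraries, a log2 of 2.07 on day 4 and 4.00 on day 2. Ifi44 was close to the floor in WTCM libraries and passed the filter only through APCCM libraries, so that it had to differ. It had 0.342, 0.878 and 0.506 CPM in APCCM and 0.0542, 0.0448 and 0.0369 CPM in WTCM libraries on day 4, from 36 counts and 3 counts, a ratio of 12.8 with an exact 95% counting interval of 4.05 to 65.1. On day 2 Ifi44 had 0.461, 0.405 and 0.608 CPM in APCCM and 0.04603, 0 and 0 CPM in WTCM libraries, from 28 counts and 1 count, a ratio of 30.4 (5.03 to 1244). The fitted log2 of Ifi44 on day 2 was 4.45, and 6.22 without WTCM replicate 1, which held the 1 count. Such intervals cover counting error alone. The 3 remaining genes were abundant and differed little. Lgals3bp, a secreted glycoprotein that binds galectins, had 411, 439.9 and 431 CPM in APCCM and 287, 300.1 and 321 CPM in WTCM libraries on day 4, and on day 2 it had 405, 431 and 393 CPM in APCCM and 333, 317 and 330.4 CPM in WTCM libraries. Helz2, a helicase, had 121, 137 and 126 CPM in APCCM and 89.5, 84.2 and 91.4 CPM in WTCM libraries on day 4, and on day 2 it had 126, 113 and 121 CPM in APCCM and 82.1, 82.96 and 84.2 CPM in WTCM libraries. Ifi35 had 37.03, 34.7 and 35.5 CPM in APCCM and 24.4, 26.2 and 26.8 CPM in WTCM libraries on day 4, and on day 2 it had 34.1, 33.4 and 30.2 CPM in APCCM and 25.5, 25.9 and 25.5 CPM in WTCM libraries. Their log2 fold changes were 0.50, 0.54 and 0.47 on day 4 and 0.33, 0.53 and 0.34 on day 2.

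**Figure D2:**
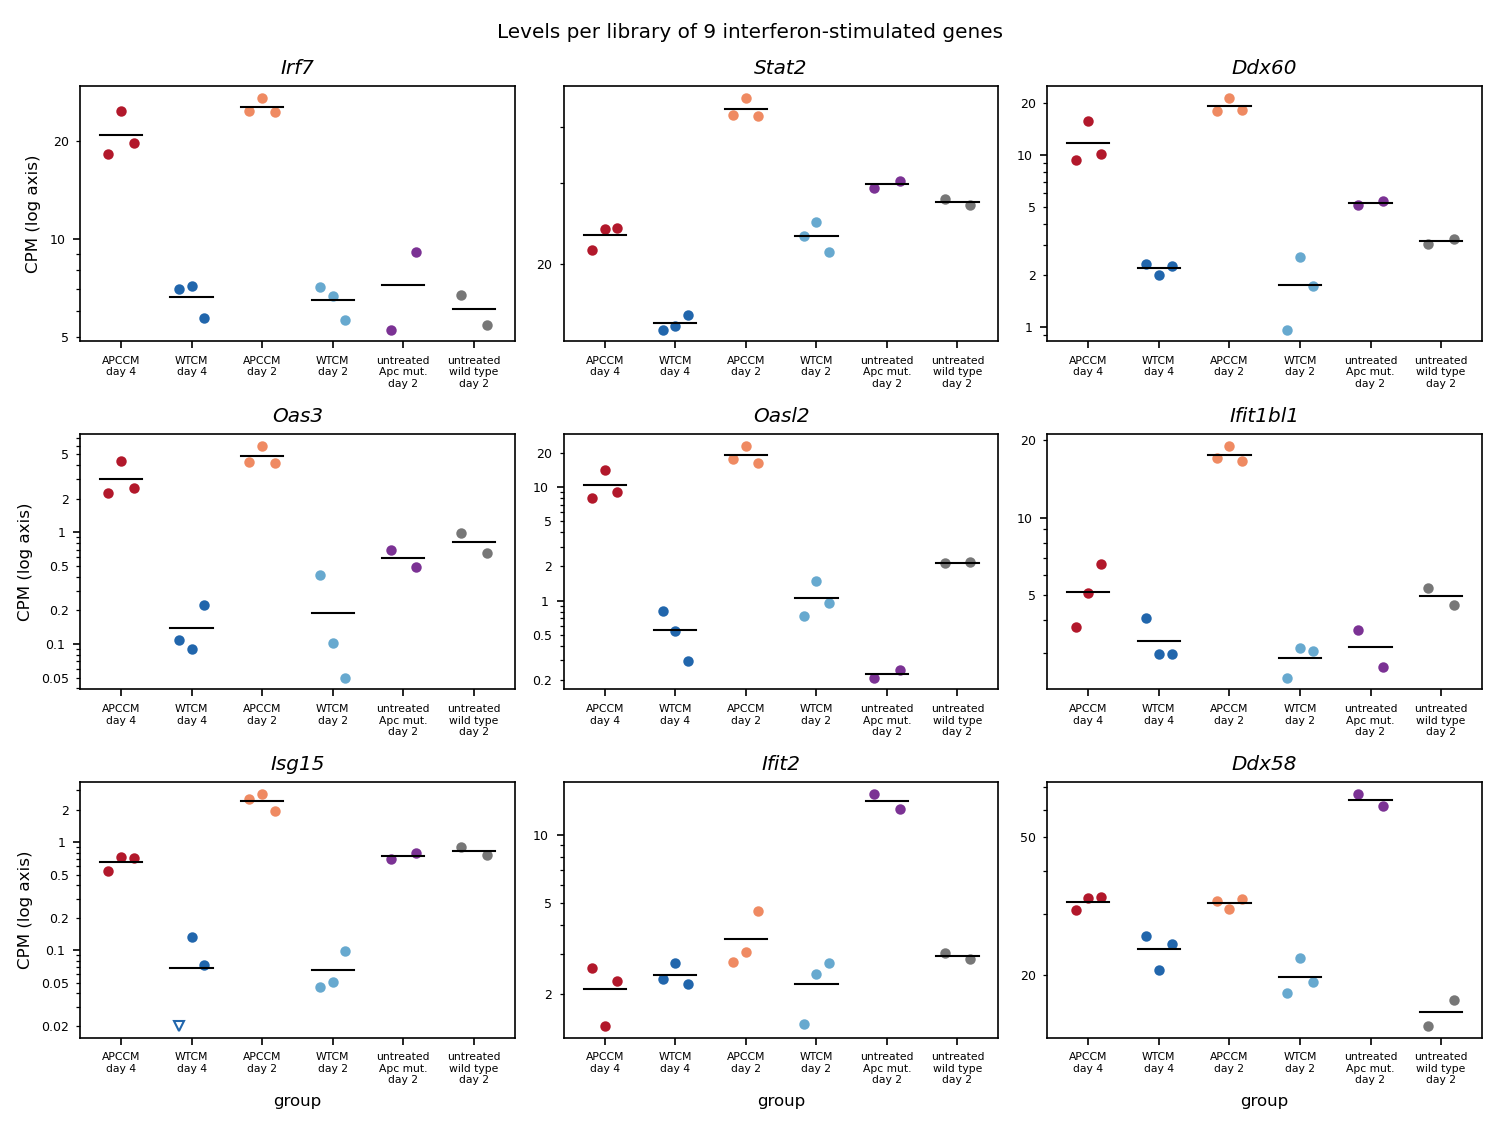
Points give the CPM of 9 genes in each library on a log axis, by group, and bars the group mean, with an open triangle at the lower edge for the 1 library at 0 counts of Isg15. Irf7, Ddx60, Oas3, Oasl2 and Isg15 sit higher in APCCM than in WTCM libraries on both days, Ifit1bl1 has its wide gap on day 2, and Ifit2 and Ddx58 are highest in untreated Apc mutant libraries.

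**Figure D3:**
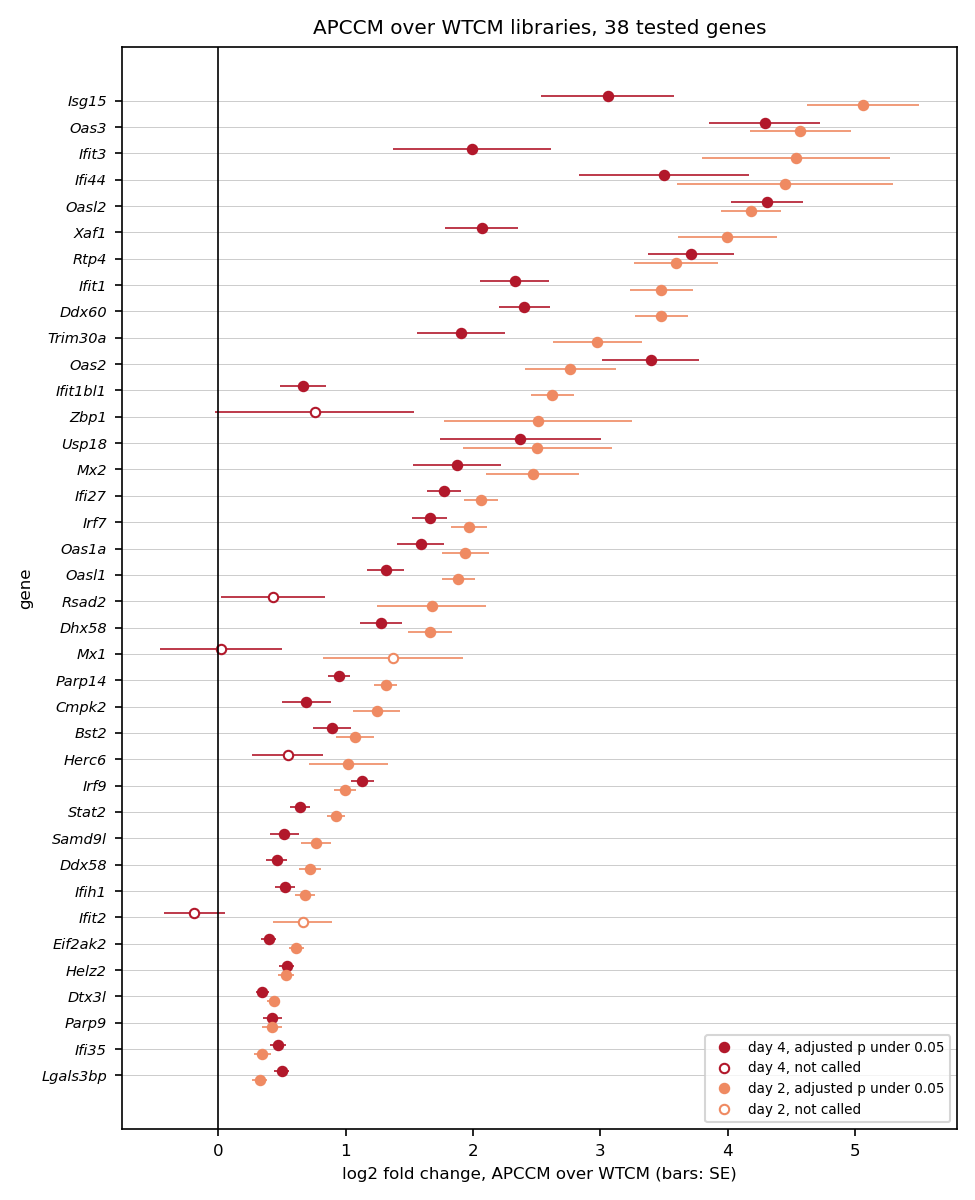
Points give the log2 fold change of APCCM over WTCM libraries for the 38 genes tested, with bars of 1 SE, on day 4 and day 2, filled where the adjusted p was under 0.05. All 38 lie above 0 on day 2 and 37 on day 4, where Ifit2 lies at -0.19.

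Genes with an ISRE match had a median log2 fold change of 1.24 on day 4 and 2.28 on day 2, against 0.62 and 1.01 for the genes whose promoters held none. The ranges overlapped on day 2, at 0.61 to 5.06 with a match and 0.33 to 4.45 without, and Oasl2, Irf7, Xaf1 and Ifi44 held none. Fold was also listed by level. On day 2 its median log2 was 2.98 for genes under 1 CPM in WTCM libraries, 1.94 at 1 to 10 CPM and 0.65 at 10 CPM or more. The WTCM level is itself the base of the fold, and a gene scarce there had to reach the filter elsewhere. The lowest class also holds Mx2, Trim30a and Ifi44, which had to differ, and its median is the value of Trim30a. This order was thus partly fixed in advance and is no result. Motif and level were not separated. Per kilobase of exon, Lgals3bp led on day 2 with 144 CPM per kb in APCCM and 115 CPM per kb in WTCM libraries, followed by Ifi35 (18.9 and 14.9 CPM per kb) and Eif2ak2 (14.5 and 9.46 CPM per kb). Isg15 was in place 19 per kilobase in APCCM libraries, at 3.18 CPM per kb. The summed level of the 39 genes was 1032 to 1125 CPM in APCCM and 699 to 730 CPM in WTCM libraries on day 4, and 1135 to 1181 CPM in APCCM and 712 to 736 CPM in WTCM libraries on day 2. Without Lgals3bp the sum was 620 to 685 CPM in APCCM and 404 to 412 CPM in WTCM libraries on day 4, and 731 to 750.3 CPM in APCCM and 379 to 419.5 CPM in WTCM libraries on day 2.

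Replicates were also compared by how many of the genes peaked in each. Of the 39 genes, 19 were highest in replicate 2 of the APCCM group on day 4 and 21 lowest in its replicate 1. In the WTCM group on day 4 the highest value was in replicate 1 for 15 genes and in each other replicate for 12. In the APCCM group on day 2, 17 genes were highest in replicate 2, and in the WTCM group on day 2, 26 were highest in replicate 2 and 21 lowest in replicate 1. Replicate 2 held the most peaks in 3 of the 4 groups, but the numbers do not pair libraries between groups. The same counts were not made over all genes. A shift of a whole library therefore cannot be told apart from a shift of these genes. Among genes with a group mean of at least 5 CPM, the median coefficient of variation was 6.69% over 21 genes in APCCM and 5.07% over 13 genes in WTCM libraries on day 4, and 6.38% over 23 genes in APCCM and 7.66% over 13 genes in WTCM libraries on day 2.

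Days were then compared within each title, and these comparisons share libraries with those between titles. The conditioned medium libraries of day 2 and of day 4 carry titles of different style, and no label gives a batch. Time in culture and any batch therefore cannot be told apart in the differences between days. In APCCM libraries, 10 genes were lower on day 4 than on day 2 and 0 higher, where 11.7% of all genes tested were called lower and 12.2% higher. The share of the group called lower was above that background, and the share called higher below it. No gene of the group was higher at an unadjusted p under 0.05 other than Ifi35 (log2 0.14), and DESeq2 called 0 higher. Isg15 fell to 0.538, 0.723 and 0.717 CPM on day 4, against 2.51, 2.78 and 1.93 CPM on day 2 (log2 -1.85, SE 0.28, adjusted p = 3.2e-05). Ifit1bl1 fell to 3.77, 5.11 and 6.63 CPM on day 4, against 17.05, 18.9990 and 16.6 CPM on day 2 (log2 -1.75, SE 0.15, adjusted p = 6.1e-09). Stat2 fell to 21.4, 23.9 and 23.9 CPM on day 4, against 42.5, 46.3 and 42.2 CPM on day 2 (log2 -0.92, SE 0.07, adjusted p = 1.1e-09). In each of the 3, all day 4 libraries lay below all day 2 libraries. The other 7 were Ifit1 (log2 -1.16), Oasl1 (-1.01), Oasl2 (-0.88), Ddx60 (-0.73), Ifit2 (-0.72), Cmpk2 (-0.65) and Eif2ak2 (-0.35), whose values per library are given with each gene. The call of Ifit2 was lost without APCCM replicate 3 of day 2 (adjusted p 0.21) or APCCM replicate 2 of day 4 (0.13). The median over the group was -0.28, against 0 over all genes. In 13 genes all day 4 libraries lay lower and in 1 gene, Ifi35, all lay higher, where 19.3% and 20.4% of all genes did so. The 8 genes with a positive value, none of them called, were Ifi44, Ifi35, Parp9, Helz2, Ifih1, Lgals3bp, Dtx3l and Ddx58, at 0.01 to 0.20.

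In WTCM libraries 3 genes were higher and 2 lower on day 4, where 12.5% and 11.6% of all genes were called. Stat2 fell to 14.3, 14.6 and 15.4 CPM on day 4, against 22.97, 24.7 and 21.2 CPM on day 2 (log2 -0.63, SE 0.08, adjusted p = 1.8e-06). Irf9 fell to 9.82, 11.5 and 11.01 CPM on day 4, against 13.9, 12.5 and 14.3 CPM on day 2 (log2 -0.33, adjusted p = 0.014). Both of these ISGF3 subunits were lower on day 4, with no overlap between days. Xaf1 rose to 0.705, 0.358 and 0.4803 CPM on day 4, against 0.184, 0.102 and 0.0996 CPM on day 2 (log2 1.90, SE 0.50, adjusted p = 0.0073). Ddx58 (log2 0.27, adjusted p = 0.029) and Ifih1 (0.24, adjusted p = 0.036) rose slightly, and the days overlapped for Ddx58. Ddx58 had 25.98, 20.7 and 24.6 CPM on day 4, against 17.7, 22.3 and 19.02 CPM on day 2, and Ifih1 had 32.9, 31.6 and 29.7 CPM on day 4, against 25.4, 29.01 and 25.5 CPM on day 2. The calls of Ddx58 and Ifih1 were lost with the replicate numbers as a block (adjusted p 0.057 and 0.055). Without 1 library the adjusted p of Ddx58 reached 0.17 without WTCM replicate 1 of day 2, 0.094 without its replicate 3, 0.14 without WTCM replicate 1 of day 4 and 0.11 without its replicate 3. That of Ifih1 was 0.14 and 0.13 without replicates 1 and 3 of day 2, and 0.13 and 0.084 without replicates 1 and 2 of day 4. That of Irf9 was 0.052 and 0.064 without replicates 1 and 3 of day 2, and 0.068 without replicate 1 of day 4. Oasl1 (-0.43, adjusted p = 0.052), Oasl2 (-1.0013, 0.097) and Dtx3l (0.12, 0.095) came next and were not called. The median was 0.12, and in 7 genes all day 4 libraries were higher and in 4 all were lower, where 21.1% and 20.2% of all genes did so.

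**Figure D4:**
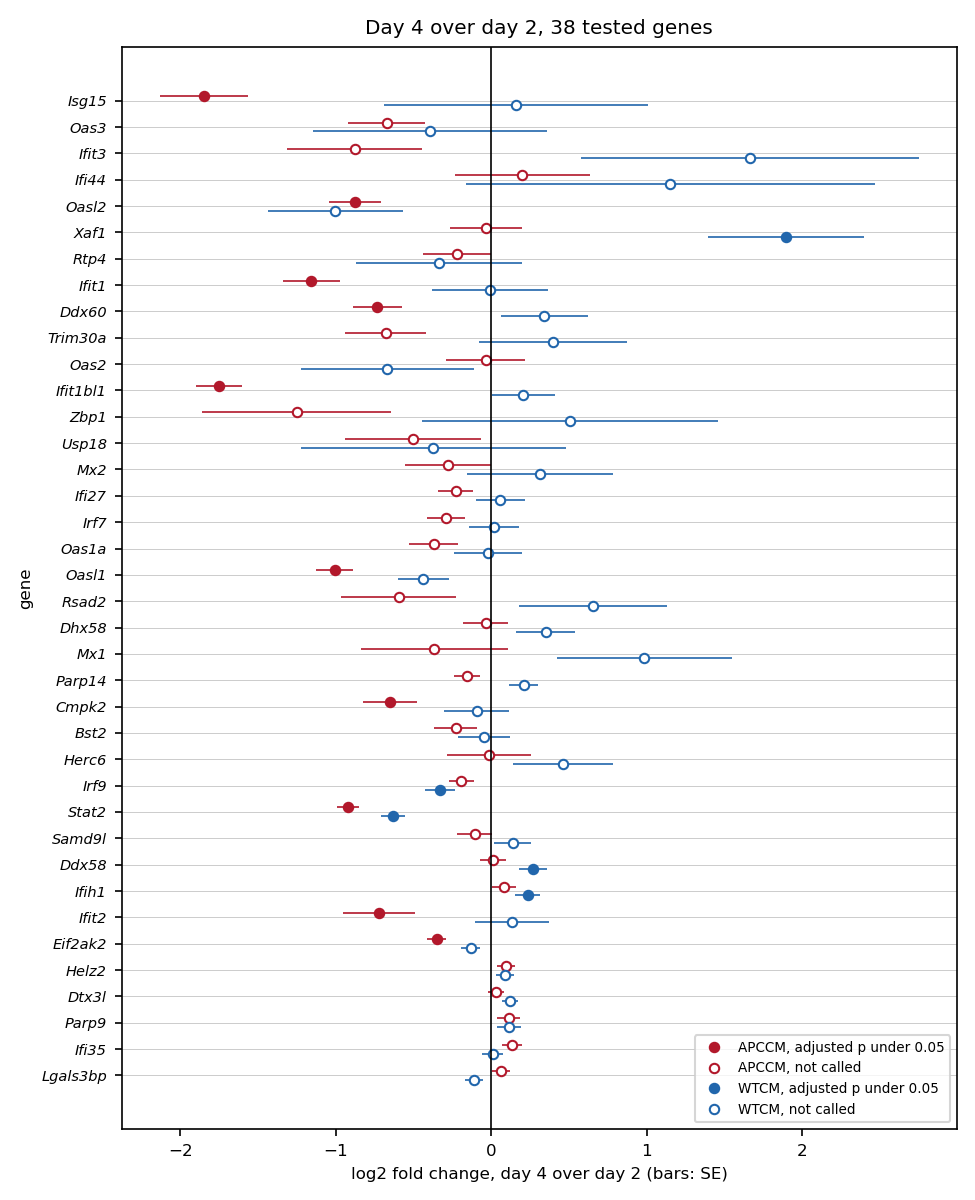
Points give the log2 fold change of day 4 over day 2 for the 38 genes tested, with bars of 1 SE, in APCCM and in WTCM libraries, filled where the adjusted p was under 0.05. Isg15, Ifit1bl1, Ifit1, Oasl1 and Stat2 stand far to the left in APCCM libraries, while in WTCM libraries Stat2 and Irf9 are lower and Xaf1 is higher.

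The difference between titles was itself compared between days with an interaction term. Ifit1bl1 was the 1 gene called, with an interaction of -1.96 on the log2 scale (SE 0.25, adjusted p = 3.5e-05), so that its gap between titles was smaller on day 4. Over all genes 1.24% were called lower and 0.884% higher. DESeq2 called 2 of the genes lower and 0 higher. The next genes were Xaf1 (-1.93, adjusted p = 0.074), Ddx60 (-1.07, 0.086), Parp14 (-0.37, 0.17), Oasl1 (-0.57, 0.19), Ifit1 (-1.15, 0.21), Stat2 (-0.29, 0.21) and Ifit2 (-0.85, 0.26), none of which passed. Unadjusted, 11 genes of the group had p under 0.05 with a negative value and 1, Lgals3bp (0.17), with a positive one, where 6.51% and 5.79% of all genes did so. The median of the group was -0.33, against 0 over all genes, and positive values were those of Oas2, Lgals3bp, Irf9, Oasl2, Ifi35, Rtp4, Helz2 and Parp9.

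Untreated organoids were compared between genotypes on day 2 (n = 2 in each group). Here the genes did not move together, with 12 higher and 16 lower in untreated Apc mutant than in untreated WT libraries. Over all genes tested 32.4% were called higher and 30.1% lower, so that the group's split was near the background. The median log2 fold change was 0.17, against 0 over all genes, and stood at 0.17 also with Trim30a, which had 0 counts in the mutant, at its bound. It was -0.03 without Apc mutant replicate 5, so its sign rests on that library. In 18 genes both Apc mutant libraries lay above both WT libraries and in 16 below, where 39.3% and 36.4% of all genes did so. Cell type markers also differed here. The 7 epithelial markers summed to 3469.6 to 3769.5 CPM in untreated Apc mutant and 5649 to 6139 CPM in untreated WT libraries, although Krt18 (906 and 936 CPM in untreated Apc mutant and 623 and 601 CPM in untreated WT libraries) and Cdx2 (157 and 163 CPM in untreated Apc mutant and 143 and 131 CPM in untreated WT libraries) stood higher in the mutant. The 14 immune markers summed to 6.10 to 7.89 CPM in untreated Apc mutant and 3.43 to 3.60 CPM in untreated WT libraries. Most of the sum in the mutant was Cd68, a macrophage marker, at 5.75 and 7.59 CPM in untreated Apc mutant and 1.31 and 1.31 CPM in untreated WT libraries, while Itgam, a marker of myeloid cells, had 0.139 and 0.184 CPM in untreated Apc mutant and 2.04 and 1.96 CPM in untreated WT libraries, and 9 of the 14 were at 0 counts in the mutant. The 5 fibroblast markers summed to 0.901 to 1.71 CPM in untreated Apc mutant and 0.109 to 0.164 CPM in untreated WT libraries. Ptprc, which marks all white blood cells, was at 0 counts in both untreated Apc mutant libraries. The part of these differences in the result was not tested.

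Related sensors and effectors moved in opposite directions in untreated organoids. Ddx58 had 66.7 and 61.7 CPM in untreated Apc mutant and 14.2 and 16.9 CPM in untreated WT libraries (log2 2.05, SE 0.12, adjusted p = 1e-13). Ifih1 had 7.07 and 7.65 CPM in untreated Apc mutant and 28.1 and 25.3 CPM in untreated WT libraries (log2 -1.86, SE 0.13, adjusted p = 8.5e-12). RIG-I transcripts were thus higher and MDA5 transcripts lower. Dhx58 had 0.901 and 0.489 CPM in untreated Apc mutant and 3.35 and 2.40046 CPM in untreated WT libraries (log2 -2.09), and so followed Ifih1. Ifit2 had 15.1 and 13.03 CPM in untreated Apc mutant and 3.02 and 2.84 CPM in untreated WT libraries (log2 2.25, SE 0.26, adjusted p = 5.7e-08). Bst2 had 18.8 and 23.3 CPM in untreated Apc mutant and 6.54 and 4.58 CPM in untreated WT libraries (log2 1.90, SE 0.17, adjusted p = 5.7e-10). Ifit2 and Bst2 reached their highest levels of any group in untreated Apc mutant libraries. Ifi27 had 15.9 and 17.1 CPM in untreated Apc mutant and 4.09 and 4.26 CPM in untreated WT libraries (log2 1.99, SE 0.19, adjusted p = 2e-09). Rsad2 had 2.29 and 3.43 CPM in untreated Apc mutant and 0.736 and 0.873 CPM in untreated WT libraries (log2 1.84). Its neighbour Cmpk2 had 7.07 and 5.57 CPM in untreated Apc mutant and 2.94 and 2.62 CPM in untreated WT libraries (log2 1.17). Both neighbours were thus higher in the mutant, as was Irf9, at 22.7 and 20.6 CPM in untreated Apc mutant and 15.3 and 15.8 CPM in untreated WT libraries (log2 0.48). Xaf1 had 1.32 and 1.897 CPM in untreated Apc mutant and 0.245 and 0.327 CPM in untreated WT libraries (log2 2.5004). Usp18 had 0.624 and 1.101 CPM in untreated Apc mutant and 0 and 0.109 CPM in untreated WT libraries, from 27 counts and 1 count, a ratio of 18.8 with an exact 95% counting interval of 3.09 to 769. Its fitted log2 of 4.04 was 2.93 without WT replicate 4 and 7.10, no bound, without WT replicate 5, which held the 1 WT count.

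The lower genes in untreated Apc mutant libraries included most of the Oas family. Oasl1 had 5.27 and 5.69 CPM in untreated Apc mutant and 17.0040 and 16.3 CPM in untreated WT libraries (log2 -1.60, SE 0.16, adjusted p = 2.7e-09). Oasl2 had 0.208 and 0.245 CPM in untreated Apc mutant and 2.13 and 2.18 CPM in untreated WT libraries (log2 -3.20, SE 0.68). Oas1a had 3.19 and 2.203 CPM in untreated Apc mutant and 5.56 and 6.44 CPM in untreated WT libraries (log2 -1.15). Of the 5 Oas genes, 3 were therefore lower, whereas Oas2 (1.12) and Oas3 (-0.51) were not called. Parp9 had 20.3 and 18.97 CPM in untreated Apc mutant and 33.3 and 37.6 CPM in untreated WT libraries (log2 -0.85, SE 0.11, adjusted p = 3e-07). Parp14 had 10.6 and 9.73 CPM in untreated Apc mutant and 15.5 and 18.4 CPM in untreated WT libraries (log2 -0.73). Dtx3l had 25.6 and 23.8 CPM in untreated Apc mutant and 31.9 and 31.5 CPM in untreated WT libraries (log2 -0.36). Parp9, Parp14 and Dtx3l were thus each lower, where 30.1% of all genes were called lower, and Dtx3l and Parp9 share bases on opposite strands. Samd9l had 35.3 and 26.98 CPM in untreated Apc mutant and 52.5 and 56.5 CPM in untreated WT libraries (log2 -0.81). Ifi35 had 18.3 and 20.1 CPM in untreated Apc mutant and 28.5 and 27.9 CPM in untreated WT libraries (log2 -0.55, adjusted p = 1.5e-05). Lgals3bp had 270.4 and 306 CPM in untreated Apc mutant and 389 and 349.9 CPM in untreated WT libraries (log2 -0.36). Herc6 had 2 counts in untreated Apc mutant and 18 in untreated WT libraries, a ratio of 0.0773 with an exact 95% counting interval of 0.00869 to 0.323. Trim30a had 0 counts in untreated Apc mutant and 8 in untreated WT libraries, and was at least 3.83-fold lower, with 3 counts over the group as the floor, a call lost without WT replicate 5 (adjusted p 0.052).

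Several other calls did not survive the loss of 1 library. Among them, Mx1 passed the filter on low counts only through untreated WT libraries, so that it had to lie lower in the mutant. It is included in the count of lower genes above, and its difference is no result of its own. Mx1 had 0.347 and 0.245 CPM in untreated Apc mutant and 0.899 and 1.53 CPM in untreated WT libraries (log2 -1.99), and reached adjusted p 0.059 without WT replicate 5, at a log2 of -1.60. Rtp4 had 1.32 and 2.203 CPM in untreated Apc mutant and 0.736 and 0.109 CPM in untreated WT libraries. Its log2 of 1.92 was 3.95 without WT replicate 4, and the call was lost without Apc mutant replicate 5 (0.057) or WT replicate 5 (0.058, log2 1.27). Ddx60 had 5.13 and 5.38 CPM in untreated Apc mutant and 3.02 and 3.27 CPM in untreated WT libraries (log2 0.75, adjusted p = 0.046), and the call was lost without any 1 of the 4 libraries, at 0.073 to 0.17, while the log2 stayed at 0.68 to 0.80. Helz2 had 58.6 and 68.8 CPM in untreated Apc mutant and 55.3 and 55.1 CPM in untreated WT libraries (log2 0.21). Its adjusted p was 0.42 without Apc mutant replicate 5, 0.091 without WT replicate 4 and 0.083 without WT replicate 5, and its log2 was 0.09 without the first of these and 0.21 without either WT library. Ifit1bl1 had 3.67 and 2.63 CPM in untreated Apc mutant and 5.31 and 4.58 CPM in untreated WT libraries (log2 -0.67), with adjusted p 0.25 without Apc mutant replicate 5 (log2 -0.44), 0.2 without WT replicate 4 and 0.051 with the replicate block. Eif2ak2 had 50.8 and 41.7 CPM in untreated Apc mutant and 55.9 and 56.7 CPM in untreated WT libraries (log2 -0.29), with adjusted p 0.16 and a log2 of -0.14 without Apc mutant replicate 5. With 2 libraries a group, these 6 calls thus hinge on which libraries are kept.

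The remaining 10 tested genes were not called in untreated organoids, and most were scarce. Irf7 and Stat2 lay close in both genotypes. Irf7 had 5.27 and 9.12 CPM in untreated Apc mutant and 6.704 and 5.46 CPM in untreated WT libraries, and Stat2 had 29.3 and 30.4 CPM in untreated Apc mutant and 27.8 and 26.8 CPM in untreated WT libraries (log2 0.24 and 0.13). Isg15 had 0.693 and 0.795 CPM in untreated Apc mutant and 0.899 and 0.764 CPM in untreated WT libraries (log2 -0.17), so that the gene with the largest fold in conditioned medium on day 2 overlapped between genotypes here. Ifit1 had 2.495 and 1.897 CPM in untreated Apc mutant and 1.39 and 1.75 CPM in untreated WT libraries (log2 0.50), and Ifit3 had 0.832 and 0.551 CPM in untreated Apc mutant and 0.0818 and 0.436 CPM in untreated WT libraries (log2 1.51). Oas2 had 0.763 and 0.489 CPM in untreated Apc mutant and 0.245 and 0.327 CPM in untreated WT libraries, and Oas3 had 0.693 and 0.489 CPM in untreated Apc mutant and 0.981 and 0.655 CPM in untreated WT libraries. Both Oas genes stood at or under 1 CPM. Zbp1 had 0.485 and 0.489 CPM in untreated Apc mutant and 0.327 and 0.109 CPM in untreated WT libraries, Mx2 had 0.347 and 0.245 CPM in untreated Apc mutant and 0.164 and 0.109 CPM in untreated WT libraries, and Ifi44 had 0.208 and 0.367 CPM in untreated Apc mutant and 0.245 and 0 CPM in untreated WT libraries, with log2 values of 1.05, 1.03 and 1.03.

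The difference between titles in conditioned medium on day 2 was set against the difference between genotypes in untreated organoids with another interaction term. It was called positive for 24 genes and negative for 3, where 26.7% and 26.4% of all genes were called, and the median was 1.61 for the group and -0.02 over all genes. The 24 include Trim30a, which passed the filter only through APCCM libraries, and Mx1, which passed only through untreated WT libraries. Their positive values were favoured in advance. The smallest adjusted p-values were those of Oasl1 (interaction 3.48, SE 0.20, adjusted p = 2.5e-13), Ifih1 (2.54, 6.6e-13), Parp14 (2.04, 7.1e-10) and Oasl2 (7.39, 2.4e-09). Each of these 4 genes was higher in APCCM than in WTCM libraries and lower in untreated Apc mutant than in untreated WT libraries. The 3 negative ones were Ddx58 (-1.34, adjusted p = 4e-08), Ifit2 (-1.59, 0.00061) and Bst2 (-0.82, 0.0048), for which the difference between untreated genotypes was larger than that between titles. Of the 36 genes called higher in APCCM libraries on day 2, 11 were higher, 15 lower and 10 not called in untreated Apc mutant libraries. Over all genes tested, 32.4% were called higher and 30.1% lower there, so that this split was near the background. Conditioned medium, read composition and culture of the untreated libraries cannot be told apart in this term. Across the 6 group means, 23 genes stood highest in APCCM libraries on day 2, 7 in APCCM libraries on day 4, 6 in untreated Apc mutant libraries and 3 in untreated WT libraries, and 0 in a WTCM group. Those in APCCM libraries include Mx2, Trim30a and Ifi44, which the filter favoured there, and the scarce, untested Sp100. Mx1, in untreated WT libraries, was likewise favoured there. The same counts were not made over all genes, so these are a description and no trait of the group.

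**Figure D5:**
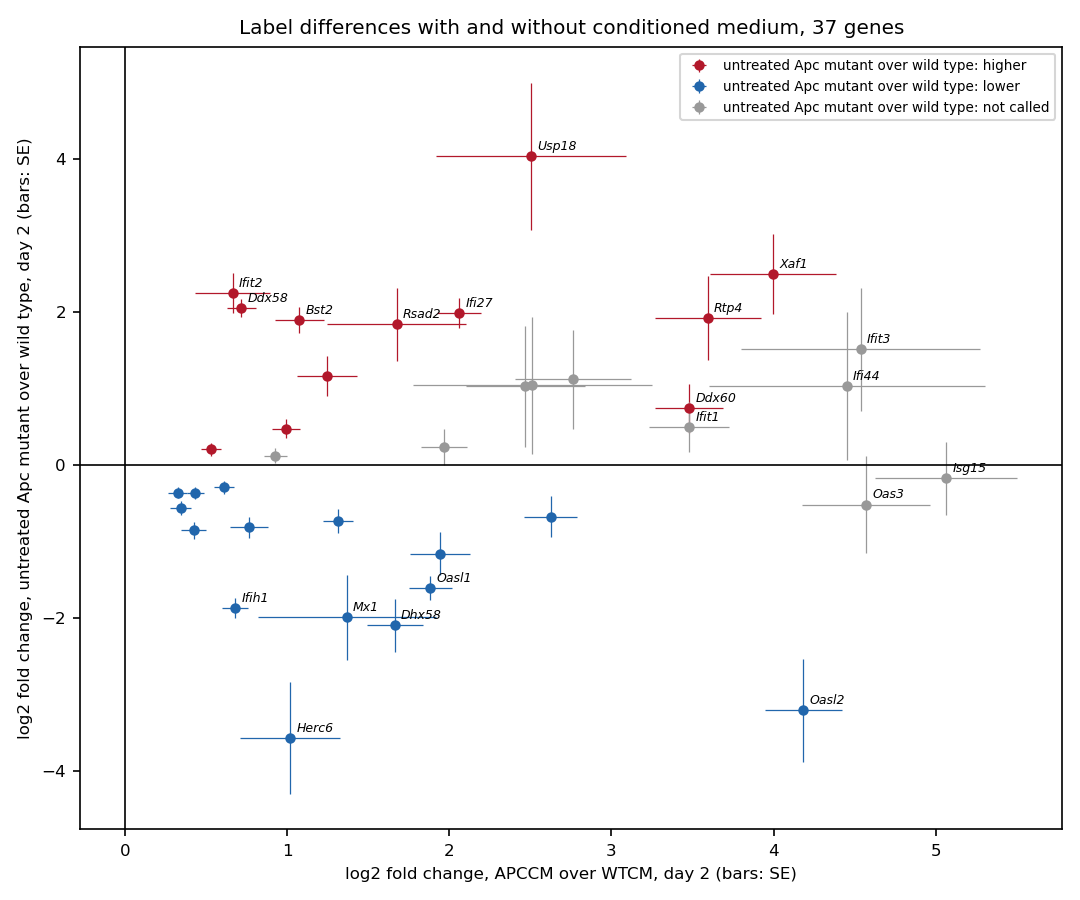
Each point is 1 of 37 genes, with the log2 fold change of APCCM over WTCM libraries on day 2 on the horizontal axis, that of untreated Apc mutant over untreated wild type libraries on the vertical axis, bars of 1 SE, and colour giving the untreated call. All points lie right of 0, while they spread to both sides of 0 vertically, with Usp18 and Xaf1 at the top and Herc6 and Oasl2 at the bottom; Trim30a, with 0 counts in both untreated Apc mutant libraries, is not drawn.

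Other parts of the pathway were examined as lists. The 10 interferon genes examined (Ifnb1, Ifna1, Ifna2, Ifna4, Ifna5, Ifne, Ifnk, Ifnl2, Ifnl3 and Ifng) had 0 counts in all 6 conditioned medium libraries of day 2, which allows each up to 0.0531 CPM over the APCCM and 0.0489 CPM over the WTCM group, for counting error only. On day 4 they summed to at most 0.169 CPM in an APCCM and 0.111 CPM in a WTCM library. In untreated Apc mutant libraries they summed to 0.0693 and 0.122 CPM, from Ifne in replicate 4 and from Ifnk and Ifnl3 in replicate 5, and in untreated WT libraries to 0. These 10 genes were thus not detectable in conditioned medium on day 2 at this depth. All 9 receptor and kinase genes were at or above 1 CPM in every group. On day 4, 1 of the 9 was called, Ifngr2, lower in APCCM libraries (log2 -0.20, adjusted p = 0.0081). On day 2, 2 were higher, Ifnlr1, the receptor chain of type III interferon (0.29, adjusted p = 0.019), and Ifngr1 (0.14, adjusted p = 0.045). Among 5 other IRF factors, 2 were higher on day 4, Irf1 and Irf8 (log2 0.22, adjusted p = 0.048). On day 2, Irf1 was higher and Irf2 lower (-0.14, adjusted p = 0.048). Of 10 genes that lead to interferon production, 3 were higher on day 4, Trim25 (0.40), Ikbke (0.17) and Cgas (0.41). On day 2, 3 were higher, Trim25 (0.49), Ikbke (0.42) and Tlr3 (0.37), and Mavs, the adaptor below RIG-I, was lower (-0.25, adjusted p = 0.0079). The feedback inhibitors Socs1, Socs3, Ptpn2 and Pias1 had adjusted p-values of 0.3 or more on both days, and Socs1 had log2 values of 0.42 on day 4 and 0.45 on day 2. Of 7 targets of type II interferon, 3 were expressed enough to test. Irf1 was higher on both days (0.34 and 0.40) and Cd274, which encodes PD-L1, on day 4 (1.03, adjusted p = 0.017), while Cxcl10 was called on neither.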

How the data were processed

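RNA-seq libraries were made from organoids of 6 label groups. Per the submitters' processing notes, reads were handled with Trimmomatic 0.36, HISAT2 2.1.0 and HTSeq 0.6.1p1 on GRCm38, and the authors deposited raw counts per Ensembl gene for each library. Neither the annotation release nor a strand setting is given in the sources used here, and reads of overlapping genes on opposite strands cannot be told apart. The 5 summary lines of each file were left out (reads in no feature, 14.4 to 19.2% in conditioned medium and 4.78 to 7.32% in untreated libraries, and reads not uniquely aligned, 26.5 to 33.3% and 36.5 to 38.9%). GENCODE M21 gave a symbol for 45229 of the 46078 identifiers.

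An edgeR 4.0.16 quasi-likelihood model (R 4.3.3, limma 3.58.1) with a term per group was fitted to all 16 libraries, after TMM scaling and filterByExpr, on 16510 genes with 10 residual degrees of freedom. The fit also drew on the untreated groups for its estimate of spread. P-values were Benjamini-Hochberg adjusted over all genes tested in each of the 7 comparisons, with a threshold of 0.05, and the common biological coefficient of variation was 5.96%. Levels are CPM on TMM-scaled library sizes. Interactions are differences of log2 fold changes. The edgeR fit was tested on simulated counts for the comparison of titles on day 2 alone. Those counts had the same spread for every gene, and changes were placed only in genes that were not scarce. The other comparisons, DESeq2, the block, the counting intervals and the motif search were not tested in this way. In each comparison the genes with the 8 smallest adjusted p-values and those against the majority direction were named with values per library. Members and gene lists were chosen with earlier results of these data known. Replicate numbers were not used as a block, since same-numbered conditioned medium libraries did not deviate together (r = -0.08 to 0.07). Alternatives were RLE scaling, no filter on low counts, DESeq2 1.42.0, protein-coding genes alone, the block, a 1.5-fold minimum, conditioned medium libraries alone, plain library sizes and each library left out. Promoters and figures were handled in Python 3.11.15 with pandas 2.3.3, scipy 1.17.1 and matplotlib 3.10.9.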

Additional observations from a re-analysis of the deposited data

Results flagged for a closer look

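The difference between APCCM and WTCM libraries changed between days for Ifit1bl1, with an interaction of -1.96 on the log2 scale (day 4 minus day 2, adjusted p = 3.5e-05, edgeR). Ifit1bl1 is 1 of several related Ifit genes whose reads may be shared.

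The difference between APCCM and WTCM libraries on day 2 also differed from that between untreated Apc mutant and untreated WT libraries in 27 genes, by the interaction test of edgeR. Values are log2 interactions, conditioned medium minus untreated, and a positive value means that the first difference lay higher. Among signalling factors they were Irf7 (1.73), Irf9 (0.51) and Stat2 (0.80). Among sensors they were Ifih1 (2.54), Dhx58 (3.75), Ddx60 (2.73) and Ddx58 (-1.34). In the Oas and Ifit families they were Oas1a (3.09), Oas3 (5.08), Oasl1 (3.48), Oasl2 (7.39), Ifit1 (2.98), Ifit1bl1 (3.30) and Ifit2 (-1.59). Oas3 had 6.38 without WTCM replicate 1. Other antiviral effectors gave Mx1 (3.36), Eif2ak2 (0.90), Samd9l (1.58) and Bst2 (-0.82). Mx1 passed the filter only through untreated WT libraries, so its positive value was favoured in advance. Isg15 and the ubiquitin and ADP-ribose enzymes gave Isg15 (5.23), Herc6 (4.58), Dtx3l (0.80), Parp9 (1.27), Parp14 (2.04) and Trim30a (8.83). Trim30a had 0 counts in untreated Apc mutant libraries, so its fitted value is no bound, and it was 7.71 without WT replicate 5 and 9.65 without WT replicate 4. The others were Ifi35 (0.90), Lgals3bp (0.68) and Helz2 (0.32), and the call of Helz2 was lost without untreated Apc mutant replicate 4 (adjusted p 0.098). Conditioned medium and the composition of the untreated libraries cannot be told apart in these values.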

How the results depend on the processing

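No log2 fold change of a called gene reversed under any alternative. Among values of single called genes under the alternatives, 1756 kept their direction and call and 80 kept their direction but lost the call. Under all alternatives run, the counts higher in APCCM than in WTCM libraries stayed within 1.5 times their values. With 1 library left out they were 29 to 33 on day 4 and 34 to 36 on day 2. DESeq2 called 30 and 31, of which 30 and 30 were among the calls of edgeR, and gave no adjusted p to 3 and 5 called genes. Counts that moved by over 1.5 times were small ones. For the change of the title difference between days, the 1 gene called lower became 3 without a filter on low counts, 2 with DESeq2 and 1 to 3 with 1 library left out. In WTCM libraries between days, the 3 genes called higher became 1 with a 1.5-fold minimum and 1 to 4 with 1 library left out, and the 2 called lower became 1 with that minimum and 1 to 3 with 1 library left out. The cause was not tested. On plain library sizes the mean summed level of the 39 genes was 1027 CPM in APCCM and 657 CPM in WTCM libraries on day 4, 1110.2 CPM in APCCM and 684 CPM in WTCM libraries on day 2, and 902 CPM in untreated Apc mutant and 888 CPM in untreated WT libraries, so that the order of the untreated groups depends on the scaling.

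With the replicate block, 33 and 36 genes were higher in APCCM libraries on day 4 and day 2, 11 were lower on day 4 in APCCM libraries, 1 was higher and 3 were lower on day 4 in WTCM libraries, 2 were called in the interaction with day, 12 were higher and 15 lower in untreated Apc mutant libraries, and the interaction with medium kept counts of 24 and 3. The numbers do not pair the libraries. Same-numbered untreated libraries deviated against each other (r = -0.29), and the crossed pairing, added after the data were seen, gave counts of 12 and 16.

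Depth limits the genes under 1 CPM in WTCM libraries, where a few counts set the fold, and untreated groups hold 2 libraries each.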
